A study of Mus musculus with 12 samples.

Results

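Transcripts of 10 genes of the tumour necrosis factor (TNF) pathway were followed in mouse bone marrow-derived macrophages (BMDMs). They were the ligand gene Tnf, the receptor genes Tnfrsf1a, Tnfrsf1b, Fas and Cd40, the adaptor genes Traf1 and Traf2, the cell death inhibitors Birc3 and Cflar, and Tnfaip2, a gene named for its induction by TNF. They were taken by symbol from a list made with earlier results of these data known, and are 10 of the 24421 symbols in the count table. All 10 were among the 11468 genes with enough counts to be tested.

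TNF is a cytokine that macrophages make soon after their immune receptors are engaged. It binds TNF receptor 1 (Tnfrsf1a), which carries a death domain, and TNF receptor 2 (Tnfrsf1b), which does not. Receptor 1 gathers TRADD, RIPK1, TRAF2 and the ubiquitin ligases called cIAPs, and so activates NF-kB, while another complex with FADD and caspase-8 can kill the cell unless cFLIP (Cflar) holds it back. Fas is the receptor that signals death through FADD directly, and CD40 is a costimulatory receptor that binds TRAF proteins. Traf1, Birc3 (cIAP2), Cflar, Tnfaip2 and Tnf itself are known as genes that NF-kB can induce.

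The BMDMs came from C57BL/6 mice, with no other genotype and no age given in the sources used here, and were grown from marrow in 5 days with 100 ng/mL of the growth factor M-CSF. All cells received ovalbumin, either free (Ova) or bound by IgG in an immune complex (IC) that cross-links Fc gamma receptors, and all received either I-BET151 at 5.0 µM (iBET), which blocks the bromodomains of BET proteins, or its solvent DMSO. Exposure to Ova or IC lasted 4 hours. The study's methods and results place the drug before the stimulus, which makes the drug exposure longer. The labels give drug and stimulus as added together, so the sources differ on the order. The 4 groups, DMSO Ova, DMSO IC, iBET Ova and iBET IC, held 3 libraries each, since mice A, B and C each gave 1 culture to every group, and an untreated group was not analysed here.

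Libraries held between 7549849 and 17387639 counts. In mouse A's DMSO Ova library, 77.4% of counts (Wilson 95% interval 77.35% to 77.41%, counting error only) lay on the ribosomal precursor Rn45s, against 1.41% to 7.83% in the other 11 libraries. It held 1042 counts over the 10 genes, where the others held 5332 to 19688, and the values of the 10 genes that use DMSO Ova are therefore given with and without it. All 8 macrophage markers were detected, with a summed level of 6330 to 8480 CPM (counts scaled to a common library size) in every library. Summed neutrophil markers (6 of 7 in the table) ran from 7.70 to 50.4 CPM with overlapping ranges in the 4 groups. Dendritic, T, NK and stromal markers summed to at most 4.43 CPM for any of these lists, and every mast cell and erythroid marker was at 0.

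Levels are CPM scaled by the TMM method and group values are mean ± SD (n = 3). Changes are fitted log2 fold changes with their standard error (SE) from edgeR's quasi-likelihood test. A gene was called, and is said to have risen or fallen, at an adjusted p under 0.05 (Benjamini-Hochberg over the 11468 genes). In bulk RNA, fewer cells of a kind and less RNA per cell cannot be told apart.

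IC raised the ligand, Fas, Traf1, both death inhibitors and Tnfaip2 in solvent, while iBET lowered Traf1, Birc3 and Cflar and raised Tnf and Cd40. In DMSO, IC against Ova called 6 of the 10 genes, all higher (Tnf, Fas, Traf1, Birc3, Cflar and Tnfaip2), where 1.22% of all genes tested were called and 0.732% were called higher. In iBET, IC called 3 of the 10, all higher (Tnf, Traf1 and Tnfaip2), where 0.349% of all genes were called and 0.314% called higher. With mouse as a block in edgeR, IC called 7 in DMSO (Cd40 added), where 2.75% of all genes were called, and 5 in iBET (Cd40 and Cflar added), where 0.741% were. DESeq2 with that block called 8 (Cd40 and Tnfrsf1b added) and the same 5, at 3.78% and 1.58% of all genes. Without mouse A's DMSO Ova library edgeR called 7 (Cd40 added) and 5 (Cd40 and Cflar added), at 1.05% and 0.480% of all genes. The median log2 fold change of the 10 was 0.78 in DMSO and 0.44 in iBET, against -0.01 over all genes in both.

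The drug itself moved the pathway in both directions. In Ova, iBET against DMSO called 3 of the 10 genes higher (Tnf, Fas and Cd40) and 3 lower (Traf1, Birc3 and Cflar), where 31.3% of all genes were called, 17.1% higher and 14.2% lower. In IC it called 3 higher (Tnf, Cd40 and Tnfaip2) and 4 lower (Traf1, Birc3, Cflar and Fas), where 34.8% of all genes were called, 19.0% higher and 15.8% lower. The median over the 10 was 0.18 in Ova and 0.03 in IC. Without mouse A's DMSO Ova library 2 were called higher (Fas and Cd40) and 4 lower (Tnfrsf1a added) in Ova, where 29.0% of all genes were called. The IC comparison in DMSO and the iBET comparison in Ova share the DMSO Ova libraries, and the other comparisons share groups in the same way.

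**Figure D1:**
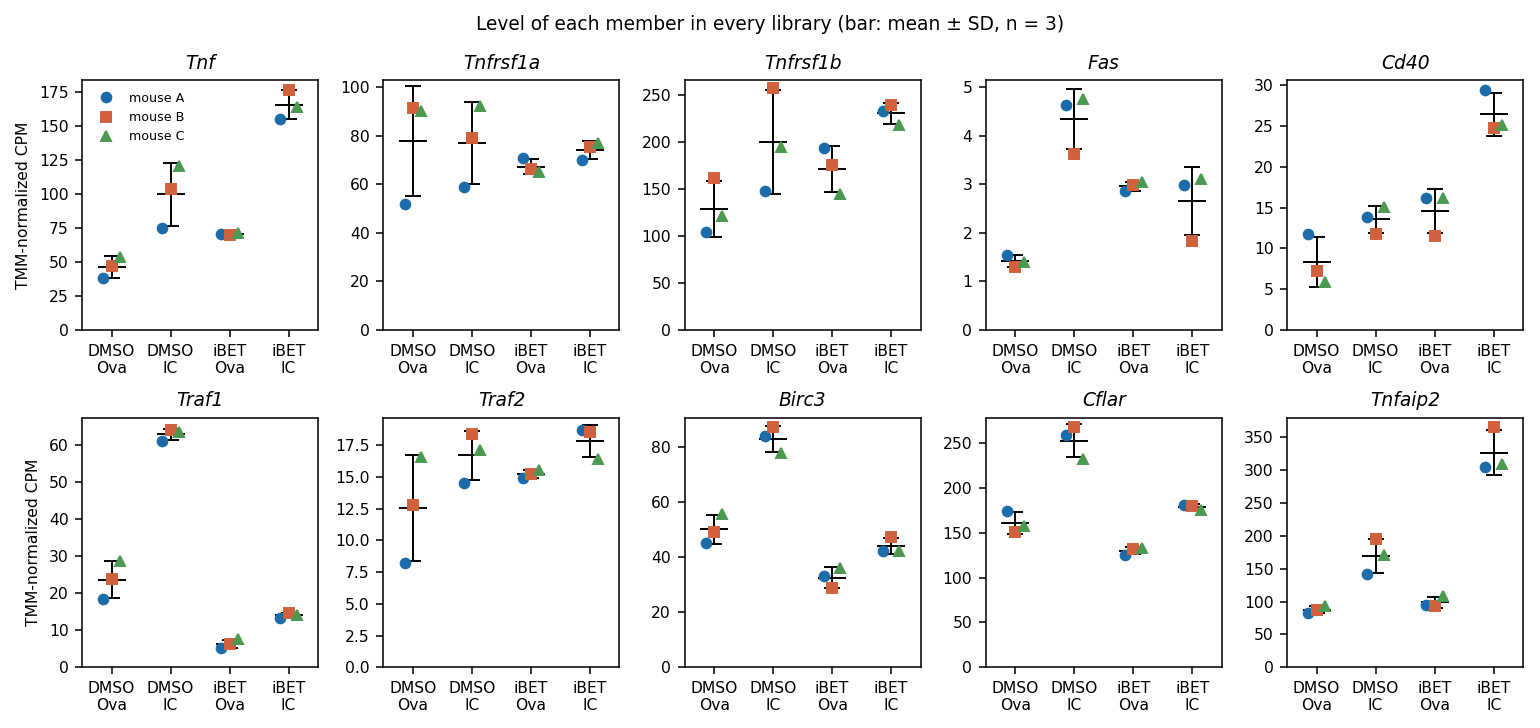
TMM-normalized CPM of each of the 10 genes (y axis, linear from 0) in the 12 libraries, by group (x axis) and mouse (colour and shape), with the mean ± SD of 3 libraries as a bar. Traf1 sits between 61.1 and 63.9 CPM in DMSO IC and between 5.32 and 7.56 CPM in iBET Ova, and Tnfaip2 is highest in iBET IC.

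**Figure D2:**
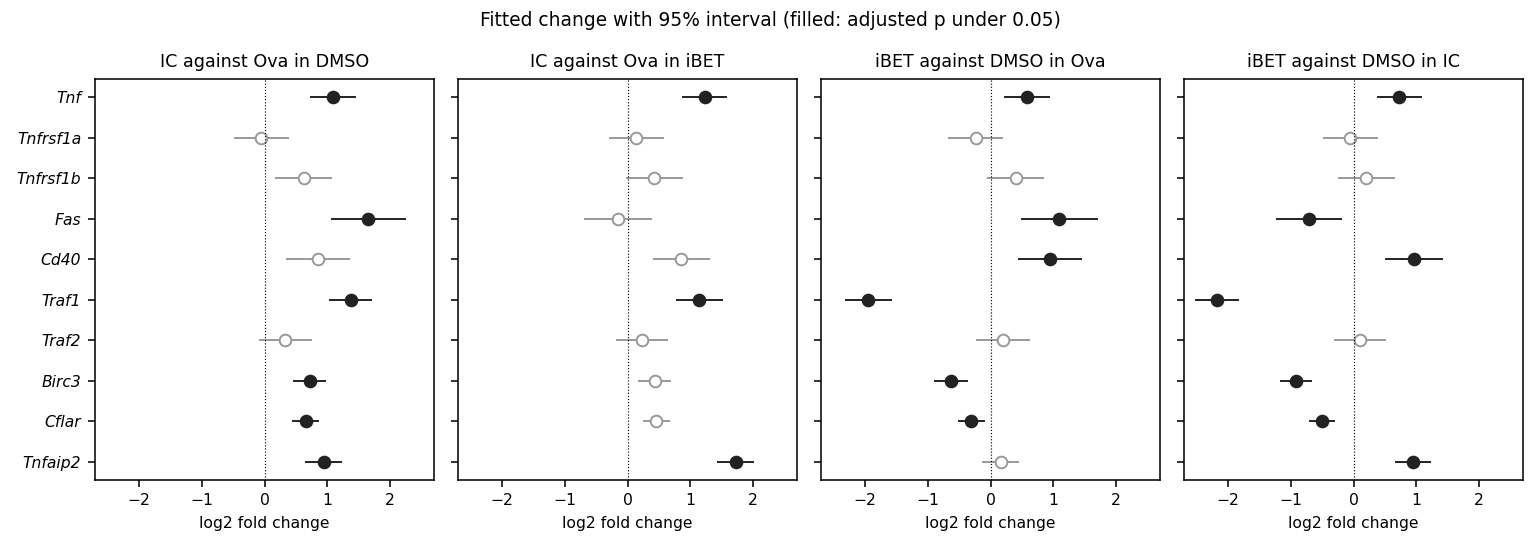
Fitted log2 fold change (x axis) of each gene (rows) in 4 comparisons, with the 95% interval as a line and filled points where the adjusted p was under 0.05. IC changes of called genes lie to the right of 0 in both drug arms, and iBET changes lie on both sides.

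With mouse B or C left out, and so 2 libraries per group, calls for IC were few over all genes and over the 10 alike. Without mouse B edgeR called 0 of the 10 genes and 0% of all genes in either IC comparison (8 of the 10 in DMSO, as with all mice, and 5 in iBET had an unadjusted p under 0.05). With all mice, 1341 of 11468 genes had an unadjusted p under 0.05 for IC in DMSO and 860 for IC in iBET. For iBET, edgeR without mouse B called 1 of the 10 in Ova and 3 in IC, where 11.4% and 15.4% of all genes were called. The IC changes in DMSO without mouse B were 1.07 for Tnf, 1.70 for Fas, 1.35 for Traf1, 0.67 for Birc3, 0.57 for Cflar and 0.83 for Tnfaip2, against 1.09, 1.65, 1.37, 0.72, 0.66 and 0.94 with all mice. Without mouse C, IC called 1 of the 10 in each arm, where 0.0866% and 0.0779% of all genes were called in DMSO and iBET, and iBET called 3 in Ova and 6 in IC, where 17.6% and 21.6% were. Without mouse A, IC called 6 of the 10 in DMSO (Cd40 in place of Fas), at 1.38% of all genes. In iBET it called 5 (Cd40 and Cflar added), at 2.66%. With mouse A left out, iBET called 6 in Ova (Tnfrsf1a in place of Cflar), at 33.6%, and 6 in IC (Fas lost), at 33.5%. When the 6 libraries of the IC comparison in DMSO were fitted alone, 0 of the 10 were called (8 at an unadjusted p under 0.05) and 0.0449% of all genes were. Those of the IC comparison in iBET fitted alone called 5, at 0.897% of all genes. DESeq2 on all 12 libraries called 7 of the 10 and 2.29% of all genes for IC in DMSO. For IC in iBET it called 5 of the 10 and 1.04% of all genes.

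The ligand gene Tnf lies on chr17:35199381-35202007 (GRCm38/mm10, minus strand). It had 38.0, 47.3 and 53.6 CPM in DMSO Ova for mice A, B and C, 75.1, 104 and 121 in DMSO IC, 70.5, 70.1 and 71.3 in iBET Ova, and 156, 177 and 165 in iBET IC. All IC libraries were above all Ova libraries, and the iBET IC libraries were the highest of the series. With IC, Tnf rose 2.12-fold in DMSO (log2 1.09, adjusted p 0.00576, SE 0.16) and 2.35-fold in iBET (log2 1.23, adjusted p 0.00396, SE 0.16), in 3 of 3 mice each. Against DMSO, iBET raised Tnf by a log2 of 0.59 in Ova (adjusted p 0.0151, SE 0.16) and 0.73 in IC (adjusted p 0.00317, SE 0.16), again in 3 of 3 mice. The smallest drug change in a mouse was 0.41 in Ova and 0.45 in IC, both in mouse C. The difference between the IC responses of the 2 arms was 0.14 (95% interval -0.34 to 0.63, and 0.27 without mouse A's DMSO Ova library) and was not called. Without mouse A's DMSO Ova library the call for iBET in Ova was lost (log2 0.44, adjusted p 0.0721), and the IC response in DMSO was 0.97 (adjusted p 0.0212). The study named Tnf, from these same libraries, among the genes whose change with IC was dampened by iBET. Its IC response here is therefore not independent evidence. In the present fit Tnf was instead higher with iBET under both stimuli, and its IC response was not called different between arms. The study used DESeq2 with batch effects removed. By qPCR of whole kidney, another setting, it also reported a smaller IC-associated increase of Tnf with iBET.

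Promoters were searched in the 250 bases before the RefSeq start (GRCm38.p6) for the NF-kB consensus (by its name), for AP-1 (TGANTCA) and for TATAAA, on both strands. A window was found for 9 of the 10 genes, Cd40 being the exception. Over 32851 such windows, 7.25% hold the NF-kB consensus, 6.75% AP-1 and 12.4% TATAAA. Of the 9 windows, Tnf and Cflar hold TATAAA (in Cflar on both strands, overlapping), Fas holds AP-1, Tnfaip2 holds the NF-kB consensus, and the windows of Tnfrsf1a, Tnfrsf1b, Traf1, Traf2 and Birc3 hold none of the 3. The ligand's window (chr17:35202008-35202257, minus strand) is shown because Tnf rose in all 4 comparisons, with TATAAA in capitals at bases 29 to 24 before the start.
Tnf: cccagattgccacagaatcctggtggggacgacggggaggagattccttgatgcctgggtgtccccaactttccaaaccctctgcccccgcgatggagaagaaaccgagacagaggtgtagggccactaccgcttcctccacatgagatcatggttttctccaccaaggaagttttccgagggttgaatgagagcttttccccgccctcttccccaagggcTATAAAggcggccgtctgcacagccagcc

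Neither TNF receptor gene was called by edgeR in any of the 4 comparisons with all libraries. Tnfrsf1a (chr6:125349362-125362484, plus strand) had 77.9 ± 22.6 CPM in DMSO Ova, 76.9 ± 16.9 in DMSO IC, 67.3 ± 3.01 in iBET Ova and 74.2 ± 3.56 in iBET IC. The groups overlapped, with the lowest library, 51.9 CPM, that of mouse A in DMSO Ova. Its 4 log2 changes lay between -0.24 and 0.14 and none was called. The widest of the 4 intervals ran from -0.66 to 0.18, for iBET in Ova. That change was -0.48 and called (adjusted p 0.0352) without mouse A's DMSO Ova library, in which mouse it was 0.45 where mice B and C had -0.47 each. The IC change in DMSO went from -0.05 to -0.26 without that library and was not called either way.

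Tnfrsf1b (chr4:145213463-145246870, minus strand) ran higher with IC in each mouse without reaching a call. It had 104, 161 and 121 CPM in DMSO Ova for mice A, B and C, 147, 257 and 194 in DMSO IC, 193, 175 and 145 in iBET Ova, and 233, 239 and 218 in iBET IC. The DMSO groups overlapped and the iBET groups did not. The IC change was 0.63 in DMSO (95% interval 0.19 to 1.06, adjusted p 0.195) and 0.43 in iBET (-0.01 to 0.86, adjusted p 0.674). With mouse as a block, DESeq2 called the change in DMSO (adjusted p 0.0215) and edgeR did not (0.0746). The change with iBET was 0.40 in Ova (-0.03 to 0.84) and 0.21 in IC (-0.23 to 0.64), with neither called.

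Fas (chr19:34290666-34327772, plus strand), the death receptor, was scarce and was the only gene of the 10 whose iBET change was called in opposite directions in Ova and IC. It had 3, 17 and 17 raw counts in DMSO Ova for mice A, B and C, 55, 33 and 50 in DMSO IC, 37, 27 and 27 in iBET Ova, and 56, 19 and 26 in iBET IC. These were 1.54, 1.30 and 1.41 CPM, 4.63, 3.63 and 4.77 CPM, 2.86, 2.98 and 3.05 CPM, and 2.99, 1.84 and 3.12 CPM. DMSO Ova lay below every other library, DMSO IC lay above every other library, and the 2 iBET groups overlapped between them.

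With IC, Fas rose 3.14-fold in DMSO (log2 1.65, adjusted p 0.0102, SE 0.27), in 3 of 3 mice, and had a change of -0.15 in iBET (95% interval -0.67 to 0.37, adjusted p 0.942). With iBET it rose in Ova (1.09, adjusted p 0.00971, SE 0.28) and fell in IC (-0.71, adjusted p 0.0314, SE 0.23), each in 3 of 3 mice. The difference between the IC responses of the arms was -1.80 (SE 0.36, unadjusted p 0.000282) and was not called over all genes (adjusted p 0.701). The rise with IC in DMSO was no longer called without mouse B's DMSO Ova library (adjusted p 0.0992) or mouse C's (0.0614). That call was also lost on leaving out mouse A (0.0509), B (0.367) or C (0.271), and with the compared groups alone (0.116). The rise with iBET in Ova was lost without mouse B (0.0871) or C (0.102), and the fall in IC without mouse A (0.101), B (0.157) or C (0.137). The fall in IC was no longer called without mouse A's DMSO IC library (0.0764) or mouse C's (0.0892), without mouse B's iBET IC library (0.114), in DESeq2 (0.0568), in DESeq2 with mouse as a block (0.058), without the filter on low counts (0.0621) or with the compared groups alone (0.0749). Without mouse A's DMSO Ova library, which had 3 counts, the rises were 1.65 and 1.07 and both stayed called.

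The Fas promoter window (chr19:34290409-34290658, plus strand) is shown because Fas was 1 of the 2 genes of the 10 with an unadjusted p under 0.05 for the difference between arms. AP-1 is in capitals, at bases 211 to 205 before the start. A misc_RNA gene, Gm27818, lies inside Fas on the same strand and is not in the count table.
Fas: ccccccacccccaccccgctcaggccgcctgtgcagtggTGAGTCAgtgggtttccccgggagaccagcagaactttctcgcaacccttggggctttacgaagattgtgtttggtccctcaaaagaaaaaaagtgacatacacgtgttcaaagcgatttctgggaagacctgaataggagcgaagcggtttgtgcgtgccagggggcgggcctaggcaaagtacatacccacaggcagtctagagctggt

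Cd40 (chr2:165055627-165072948, plus strand), the costimulatory receptor, rose with iBET under both stimuli. It had 11.8, 7.28 and 5.89 CPM in DMSO Ova for mice A, B and C, 13.9, 11.8 and 15.1 in DMSO IC, 16.1, 11.5 and 16.1 in iBET Ova, and 29.4, 24.7 and 25.2 in iBET IC. The iBET IC libraries stood above all others, and the DMSO Ova and iBET Ova groups overlapped only through mouse A in DMSO. The rise with iBET was 0.95 in Ova (adjusted p 0.00729, SE 0.23) and 0.96 in IC (adjusted p 0.00312, SE 0.20), in 3 of 3 mice each. The IC change was 0.84 in DMSO (95% interval 0.35 to 1.34, adjusted p 0.113) and 0.86 in iBET (0.41 to 1.30, adjusted p 0.141), higher in 3 of 3 mice in each. With mouse as a block both IC changes were called in edgeR (adjusted p 0.0399 and 0.0365) and in DESeq2 (0.0072 and 0.00075). Without mouse A's DMSO Ova library they were 1.02 and 0.87, and both were called (0.0334 and 0.042).

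Traf1 and Traf2 are adaptors that dock on TNF receptor 2 and CD40 and carry the cIAPs, and they differed in what was called. Traf1 (chr2:34941750-34961772, minus strand) had the largest iBET changes of the 10 genes. It had 18.5, 23.8 and 28.7 CPM in DMSO Ova for mice A, B and C, 61.1, 63.9 and 63.5 in DMSO IC, 5.32, 6.18 and 7.56 in iBET Ova, and 13.3, 14.5 and 14.1 in iBET IC. No 2 groups overlapped, and every iBET IC library was below every DMSO Ova library.

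With iBET, Traf1 fell to 0.26 times its DMSO level in Ova (log2 -1.94, adjusted p 5.87e-06, SE 0.17) and to 0.222 times in IC (-2.17, adjusted p 1.31e-06, SE 0.15), in 3 of 3 mice, and both calls held in all alternatives run. IC still raised it, 2.58-fold in DMSO (1.37, adjusted p 0.00142, SE 0.15) and 2.21-fold in iBET (1.14, adjusted p 0.00848, SE 0.16). The difference between these IC responses was -0.22 (95% interval -0.71 to 0.26, and -0.08 without mouse A's DMSO Ova library). The IC call in iBET was lost without mouse A's iBET Ova library (adjusted p 0.0606), mouse B's (0.0735) or mouse B's iBET IC library (0.056). Its promoter window (chr2:34961773-34962022, minus strand) is shown for the gene that fell most with iBET. It stands in lower case throughout, since none of the 3 motifs was found there.
Traf1: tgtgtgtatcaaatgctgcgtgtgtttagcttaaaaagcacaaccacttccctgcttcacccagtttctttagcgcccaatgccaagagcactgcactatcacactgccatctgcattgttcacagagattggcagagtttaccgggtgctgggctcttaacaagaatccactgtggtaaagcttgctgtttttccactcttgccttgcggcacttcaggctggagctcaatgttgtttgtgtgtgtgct

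Traf2 (chr2:25517982-25546940, minus strand), the TRAF that receptor 1 recruits through TRADD, had 12.5 ± 4.19 CPM in DMSO Ova, 16.7 ± 1.95 in DMSO IC, 15.2 ± 0.338 in iBET Ova and 17.9 ± 1.26 in iBET IC. Its libraries ran from 8.22 CPM, in mouse A of DMSO Ova, to 18.7 CPM. None of its 4 changes was called, and they lay between 0.10 and 0.33 with interval bounds from -0.29 to 0.74. A processed pseudogene, Gm13433, overlaps Traf2 on the opposite strand and is not in the count table.

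The 2 genes that hold back cell death at the receptors rose with IC in DMSO and fell with iBET. Birc3 (chr9:7848699-7873186, minus strand) encodes cIAP2, a ubiquitin ligase that TRAF proteins bring to the receptor. It had 45.2, 49.2 and 55.7 CPM in DMSO Ova for mice A, B and C, 83.7, 87.1 and 77.9 in DMSO IC, 33.2, 28.7 and 35.9 in iBET Ova, and 42.2, 47.4 and 42.2 in iBET IC. The DMSO IC libraries were the highest and the iBET Ova libraries the lowest, and DMSO Ova and iBET IC overlapped. Birc3 rose with IC in DMSO (0.72, adjusted p 0.0083, SE 0.11) and had a change of 0.43 in iBET (95% interval 0.18 to 0.68, adjusted p 0.216), higher in 3 of 3 mice in each. It fell with iBET by 0.63 on the log2 scale in Ova (adjusted p 0.00131, SE 0.12) and by 0.92 in IC (adjusted p 6.81e-05, SE 0.11), in 3 of 3 mice. Its IC call in DMSO was lost without mouse B's DMSO Ova library (adjusted p 0.0669) and held without that of mouse A (0.64, adjusted p 0.0325).

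Cflar (chr1:58711508-58758884, plus strand) encodes cFLIP, the inactive relative of caspase-8. It had 174, 151 and 158 CPM in DMSO Ova for mice A, B and C, 258, 267 and 232 in DMSO IC, 125, 132 and 133 in iBET Ova, and 181, 179 and 175 in iBET IC. No 2 groups overlapped, with DMSO IC highest and iBET Ova lowest as for Birc3, and iBET IC just above DMSO Ova. Cflar rose with IC in DMSO (0.66, adjusted p 0.00464, SE 0.09). In iBET its change was 0.46 (95% interval 0.26 to 0.65, adjusted p 0.0662), which was called with mouse as a block (adjusted p 0.0387 in edgeR and 0.000547 in DESeq2) and without mouse A's DMSO Ova library (0.037). It fell with iBET by 0.30 in Ova (adjusted p 0.0233, SE 0.09) and by 0.50 in IC (adjusted p 0.00102, SE 0.09), in 3 of 3 mice each. The fall in Ova was no longer called without mouse C's DMSO Ova library (adjusted p 0.0517), mouse A's iBET Ova library (0.079), mouse B's (0.0634), or the filter on low counts (0.0504).

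Tnfaip2 (chr12:111442469-111455018, plus strand), a gene that endothelial and myeloid cells switch on in response to TNF, was highest in iBET IC. It had 82.7, 87.3 and 93.1 CPM in DMSO Ova for mice A, B and C, 142, 195 and 171 in DMSO IC, 94.1, 93.1 and 109 in iBET Ova, and 304, 365 and 308 in iBET IC. The 2 Ova groups touched at 93.1 CPM, and every iBET IC library was above every DMSO IC library. IC raised it 1.92-fold in DMSO (0.94, adjusted p 0.00442, SE 0.13) and 3.30-fold in iBET (1.72, adjusted p 0.000117, SE 0.13). The iBET change was 0.17 in Ova (95% interval -0.11 to 0.44, adjusted p 0.357) and a rise of 0.95 in IC (adjusted p 0.000128, SE 0.13), in 3 of 3 mice. Its IC response was thus larger in iBET by 0.78 (SE 0.18, unadjusted p 0.00087), which was not called over all genes (adjusted p 0.997) except in DESeq2 with mouse as a block (adjusted p 0.0448). An antisense gene, Gm40578, overlaps its end from base 111450405 on the opposite strand and is not in the count table, and whether strand was used in counting is not given in the sources used here, so reads of the pair cannot be told apart.

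The 30 bases around the NF-kB match of Tnfaip2 (chr12:111442627-111442656, plus strand) are shown because Tnfaip2 was the only gene with that match in its window. The match is in capitals, read on the minus strand, at bases 24 to 15 before the RefSeq start. GENCODE annotates an exon over this stretch.
Tnfaip2: gactattttaGGAGGGCCCCtccagggtcg

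Whether the IC response differed between the 2 drug arms was tested for all genes, and edgeR called 0 of 11468 (0%), with 292 at an unadjusted p under 0.05. Of the 10 genes 0 were called by edgeR or by DESeq2, which called 0.0239% of all genes, 1 (Tnfaip2) by DESeq2 with mouse as a block, which called 0.0358%, and 2 (Fas and Tnfaip2) had an unadjusted p under 0.05 in edgeR. They lay on opposite sides. In mice A, B and C the IC response of Fas went from 1.48, 1.36 and 1.63 in DMSO to 0.06, -0.64 and 0.03 in iBET, as differences of log2 CPM. That of Tnfaip2 went from 0.78, 1.15 and 0.87 to 1.69, 1.97 and 1.50. For Tnfrsf1b, Traf1, Birc3 and Cflar the response was smaller in iBET in 3 of 3 mice, and the fitted differences were -0.20, -0.22, -0.29 and -0.20, each with a 95% interval that includes 0. Without mouse A's DMSO Ova library these were -0.05, -0.08, -0.20 and -0.22, and without mouse B's DMSO IC library that of Tnfrsf1b changed sign, to 0.03. The other differences without mouse A's DMSO Ova library were 0.27 for Tnf, 0.41 for Tnfrsf1a, -1.79 for Fas, -0.15 for Cd40, 0.08 for Traf2 and 0.84 for Tnfaip2, with 0 called.

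For the genes not yet given without mouse A's DMSO Ova library, leaving it out kept every call. Traf1 then changed by 1.24 with IC in DMSO (adjusted p 0.00366) and by -2.11 with iBET in Ova (2.61e-06). Cflar changed by 0.69 (0.00654) and -0.30 (0.0342), and Tnfaip2 by 0.89 (0.0162) and 0.08 (0.735). Birc3 changed by -0.74 with iBET in Ova (0.000765) and Cd40 by 1.10 (0.00135). Tnfrsf1b, at 0.49 and 0.23, and Traf2, at 0.16 and 0.0024, stayed without a call.

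**Figure D3:**
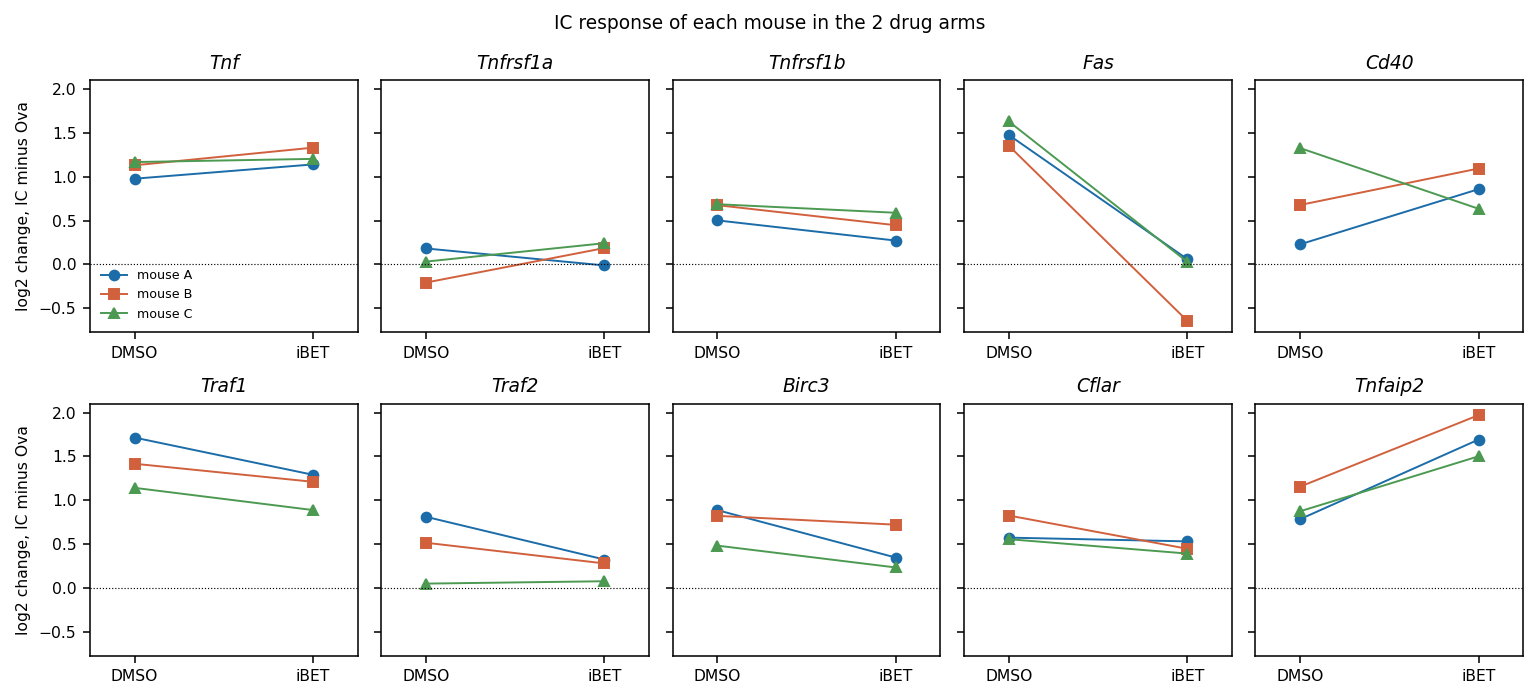
IC response of each gene, as the difference of log2 CPM between the IC and the Ova library of the same mouse (y axis), in DMSO and in iBET (x axis), with 1 line per mouse. The 3 Fas lines drop to between -0.64 and 0.06 in iBET, and the 3 Tnfaip2 lines climb to between 1.50 and 1.97.

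Levels were set side by side between genes only per kilobase (kb) of annotated exon (GENCODE vM21), with no test, over all exons of a gene unless stated. In DMSO Ova the highest were Tnfrsf1b at 33.6 ± 7.70, Tnfrsf1a at 30.1 ± 8.71 and Tnf at 28.2 ± 4.77 CPM per kb, and these 3 overlapped. Tnfaip2 followed at 17.6 ± 1.05, then Cflar at 12.7 ± 0.925 and Birc3 at 9.99 ± 1.06, each apart from its neighbours. Traf1, Traf2 and Cd40 lay together at 2.68 ± 0.578, 2.46 ± 0.821 and 2.45 ± 0.910, and Fas was lowest at 0.688 ± 0.0577 CPM per kb. Traf1's place beside Traf2 and Cd40 rests on its exon length, 8.819 kb over all exons and 3.436 kb in the longest transcript. Over the longest transcript the 3 had 6.89 ± 1.48, 3.04 ± 1.02 and 2.79 ± 1.04 CPM per kb. In iBET IC, Tnf led at 101 ± 6.53 CPM per kb, ahead of Tnfaip2 at 65.4 ± 6.84 and Tnfrsf1b at 60.3 ± 2.84, which overlapped. Over the longest transcript Tnfaip2 had 83.8 ± 8.76 and lay apart from Tnfrsf1b, which stayed at 60.3 ± 2.84. Traf1, at 1.59 ± 0.0722 CPM per kb, stood in ninth place, where it overlapped Fas at 1.28 ± 0.341. Over the longest transcript they had 4.07 ± 0.185 and 1.63 ± 0.432 and lay apart.

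The rest of the pathway was described from 5 lists. That of TNF shedding and Tnf mRNA control also took in Litaf and Tnfaip genes. IC called few genes of the 5 lists in either arm. Among 24 genes of the receptor complex and of death signalling, it raised Tnfaip3 (A20, a ubiquitin editor that restrains NF-kB signalling) by 1.34 in DMSO (adjusted p 0.000676, SE 0.13) and 1.48 in iBET (adjusted p 0.000304, SE 0.13). In DMSO it also raised Ikbke, an IkB kinase relative, by 0.83 (adjusted p 0.00583, SE 0.12). The study named Ikbke, like Tnf, from these same libraries among the genes whose change with IC was dampened by iBET. Over all genes tested, edgeR called 1.22% for IC in DMSO and 0.349% in iBET. Of the 11468 genes, 1341 in DMSO and 860 in iBET had an unadjusted p under 0.05. In both arms edgeR called 0 of the 6 other ligands tested (1 and 2 at an unadjusted p under 0.05 in DMSO and iBET), 0 of 12 other receptors (5 and 0), 0 of 13 other TRAF genes and binders (3 and 1), and 0 of 15 genes of TNF shedding and Tnf mRNA control (5 and 3). DESeq2 called 0 of these in DMSO, where it called 2.29% of all genes, and 2 in iBET (Tnfsf9 and Rhbdf2, higher), where it called 1.04%. With mouse as a block, edgeR called 3 of the shedding and mRNA control list in DMSO (Adam17 and Rhbdf2 higher, Zfp36l1 lower) at 2.75% of all genes and 1 in iBET (Rhbdf2, higher) at 0.741%, genes named here after their values were seen.

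iBET called genes in all 5 lists. Over all genes, edgeR called 31.3% in Ova (17.1% higher, 14.2% lower) and 34.8% in IC (19.0% higher, 15.8% lower). Of the 6 other ligands tested, out of 17, 3 fell in Ova, and 4 fell and 1 rose in IC, with a median change of -0.97 and -0.90. Tnfsf14 (LIGHT) fell by 2.32 in Ova and by 2.02 in IC (3.21e-05 as adjusted p in both), and Tnfsf10 (TRAIL, a death ligand) fell by 2.56 (adjusted p 0.006) and 1.82 (0.0204). The fall of Tnfsf10 in IC was no longer called without mouse C's DMSO IC library (-1.16, adjusted p 0.117) or mouse A's iBET IC library (0.0686) or mouse C's (0.0636). Tnfsf9, the ligand of 4-1BB, rose by 1.33 in IC (adjusted p 0.000923, SE 0.24).

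Of the 12 other receptors tested, out of 24, 5 rose and 4 fell in Ova, and 5 rose and 3 fell in IC. That is 75% and 66.7% called, against 31.3% and 34.8% of all genes. Relt (1.91, adjusted p 0.00268) and Tnfrsf12a, the TWEAK receptor (0.77, adjusted p 0.00648), rose most in Ova, and Tnfrsf22 (1.24, adjusted p 0.00537) and Tnfrsf23 (1.19, adjusted p 0.000122), decoy receptors for TRAIL, rose most in IC. Tnfrsf26 fell by 1.88 and 1.83 and Tnfrsf11a, the receptor RANK, by 1.07 and 1.23. DESeq2 and edgeR with mouse as a block called Tnfrsf12a and Tnfrsf23 higher under both stimuli, Relt only in Ova and Tnfrsf22 only in IC. Without mouse A's DMSO Ova library edgeR did not call Tnfrsf23 in Ova. In the receptor complex list 5 of 24 rose and 5 fell in Ova, and 4 rose and 7 fell in IC, with medians of 0.04 and 0.12. Of this list 41.7% and 45.8% were thus called, against 31.3% and 34.8% of all genes.

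Among its genes Ripk3, the kinase of necroptosis, rose by 0.91 in Ova (adjusted p 0.0138, and 0.0613 without mouse A's DMSO Ova library) and 0.99 in IC (0.0071). Map3k14, the kinase NIK of the CD40 branch, rose by 0.81 in Ova (0.00114), and Tradd, the adaptor of receptor 1, by 0.87 in IC (0.00257). Casp8, the caspase that cFLIP restrains, fell by 0.68 in Ova (0.00021), Daxx fell by 0.66 in Ova (0.00146) and 0.74 in IC (0.0005), and Ikbke fell by 1.14 in IC (2.76e-05). These values in parentheses are adjusted p from edgeR. A gene given under 1 stimulus was not thereby confined to it. DESeq2 and edgeR with mouse as a block called Map3k14 and Tradd higher, and Casp8 and Ikbke lower, under both stimuli.

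Of 13 other TRAF genes and TRAF binders, 4 rose and 4 fell with iBET under each stimulus. That is 61.5% called under each, against 31.3% of all genes in Ova and 34.8% in IC. Traf4 rose by 1.73 in Ova and by 2.45 in IC (0.00308 and 0.000278 as adjusted p), from 0.823 to 2.50 CPM and from 0.458 to 2.52 CPM, while Traf1 fell. Trafd1 rose by 0.76 in Ova (0.000165) and Traf5 by 0.81 in IC (0.00899). DESeq2 and edgeR with mouse as a block called Trafd1 higher in IC as well. In Ova, Traf5 was called higher by edgeR with that block and not by DESeq2. Tifab fell by 1.70 and 1.50 and Traf3ip3 by 1.14 and 1.30, the Traf3ip3 call in Ova being lost without mouse C's DMSO Ova library (adjusted p 0.0605).

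The list of TNF shedding and Tnf mRNA control also took in Litaf and Tnfaip genes, and its calls cover these too. Among its 15 genes tested, 4 rose in Ova and 5 in IC, and 0 fell in edgeR or in DESeq2. In edgeR that is 26.7% and 33.3% of the list called, near the 31.3% and 34.8% of all genes. With mouse as a block edgeR called Zfp36l1 lower in Ova, and without mouse A's DMSO Ova library it called Rhbdf1 lower in Ova. Both were named after their values were seen. In edgeR 5 of the 15 had an unadjusted p under 0.05 under each stimulus, as did 4774 of 11468 genes in Ova and 5094 in IC. Zfp36, whose product tristetraprolin binds Tnf mRNA and speeds its decay, went from 83.2 ± 18.3 to 271 ± 51.3 CPM with iBET in Ova (log2 1.69, adjusted p 5.16e-05, SE 0.20) and 103 ± 16.4 to 291 ± 45.9 CPM in IC (log2 1.50, adjusted p 9.89e-05, SE 0.19). Zfp36 and Tnf thus rose together with iBET under both stimuli with all libraries. Without mouse A's DMSO Ova library the Tnf change in Ova was not called by edgeR (log2 0.44, adjusted p 0.0721). Sppl2b, a protease that cuts TNF within the membrane, rose by 0.72 in Ova (adjusted p 0.0111), and Tnfaip8l2 rose by 0.69 in IC (0.00235). DESeq2 and edgeR with mouse as a block called both of these genes higher under each stimulus.

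Of the genes named from the 5 lists for IC in DMSO or iBET in Ova, Ripk3 lost its call without mouse A's DMSO Ova library and the others kept theirs. Zfp36 then changed by 1.55 with iBET in Ova (adjusted p 0.000278), Sppl2b by 0.59 (0.0454), Relt by 2.03 (0.00248), Tnfrsf12a by 0.63 (0.0207), Traf4 by 1.75 (0.00601) and Tnfsf14 by -2.40 (4.96e-05). Tnfaip3 changed by 1.32 and Ikbke by 0.70 with IC in DMSO (0.00366 and 0.0136).

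**Figure D4:**
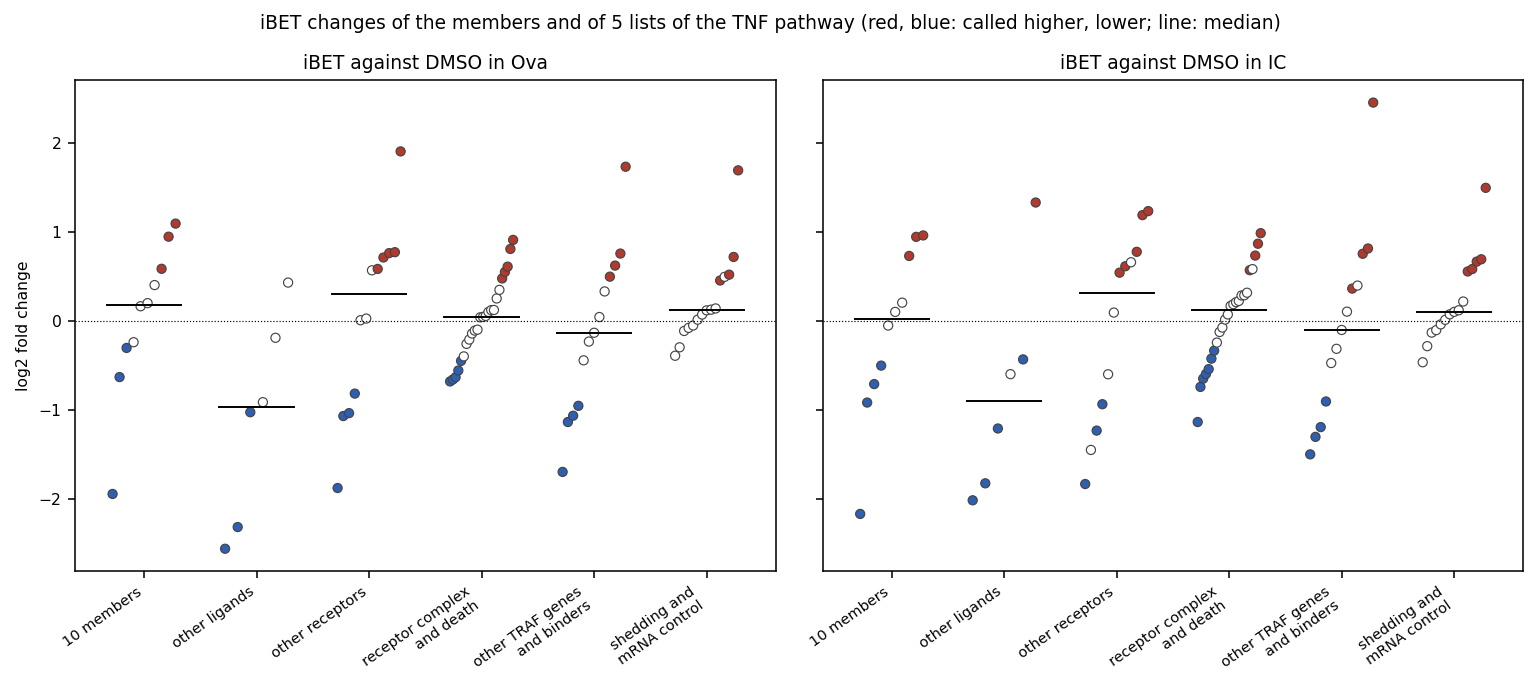
Fitted log2 fold change with iBET (y axis) of the 10 genes and of the genes of 5 lists (x axis), in Ova (left) and IC (right), with red and blue points for genes called higher and lower, open points for genes not called, and a line at each list's median. Traf4 (2.45 in IC) and Zfp36 (1.50 in IC) are the top points of the last 2 lists, and Traf1 (-2.17 in IC) is the bottom point of the 10.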

How the data were processed

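RNA was sequenced from 12 BMDM libraries in 4 groups of 3, as the labels give them. The authors deposited 2 tables. The counts per gene were made by trimming with Trim Galore, aligning to mm10 with HISAT2 and counting with featureCounts. Versions, annotation and the use of strand are not given in the sources used here. The second table, a normalized signal deposited by the authors, was checked to equal the counts divided by DESeq2 size factors (largest relative gap 4.89e-15).

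The counts went into edgeR 4.0.16 under R 4.3.3, with filterByExpr (minimum count 10), TMM factors and a robust quasi-likelihood fit with 1 term per group over all 12 libraries. Two-sided p-values were adjusted over the genes tested (Benjamini-Hochberg). For each mouse, the change is a subtraction of log2 CPM values (prior count 2). Alternatives were DESeq2 1.42.0, its size factors in edgeR, other filters, mouse as a block, 1 surrogate variable (sva 3.50.0), Rn45s left out, limma 3.58.1 on the normalized signal (pseudocount 1), the compared groups alone, and each library or mouse left out.

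Libraries were paired by mouse (A, B or C), as taken from the labels. Over 18 pairs of the same mouse from different groups, deviations from group means correlated across genes with a median r of 0.26 (-0.07 to 0.54). Over 36 pairs of different mice the median was -0.13. That value is not separate evidence, since deviations from a group mean cancel within the group. The 10 genes and the lists were chosen with earlier results of these data known. From each list, up to 2 called genes with the largest rise and 2 with the largest fall are named per comparison. P-values of the main fit rest on the spread between the 3 mice within groups, estimated jointly over the 4 groups and moderated across genes. Mouse was not a term in that fit. 1 count was worth 0.514 CPM in mouse A's DMSO Ova library and 0.0534 to 0.12 CPM in the others.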

Additional observations from a re-analysis of the deposited data

Results flagged for a closer look

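Fas moved in opposite directions with iBET in the 2 stimuli. Its change was 1.09 in Ova (0.82, 1.09 and 1.02 in mice A, B and C) and -0.71 in IC (-0.60, -0.91 and -0.58), so that 3 of 3 mice moved up in Ova and 3 of 3 moved down in IC. The difference itself was -1.80 with an unadjusted p of 0.000282 in edgeR's quasi-likelihood test, which an adjustment over 11468 genes took to 0.701. Over 23 alternatives it lay between -1.92 and -1.61, with adjusted p from 0.386 to 1.0. Fas had between 3 and 56 counts in a library, and a count of 3 was that of mouse A in DMSO Ova.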

How the results depend on the processing

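Depth limited Fas most (3 counts for mouse A's DMSO Ova library), and it was not tested where at least 10 counts in every library were required. Each group held 3 mice. Of the fitted values for the 10 genes under an alternative, 1135 kept direction and call, 56 lost a call, 22 gained one and 22 changed sign. Values for named genes of the lists kept both in 859 cases and lost a call in 28. For IC in iBET, where 3 of the 10 genes were called, 5 were called (Cd40 and Cflar added) in DESeq2, with mouse as a block in edgeR or DESeq2, and with the compared groups alone. For IC in DMSO, with 6 called, the compared groups alone called 0, where 5 of 11141 genes were called in all against 140 of 11468 with all groups. For the difference between arms, with 0 called, DESeq2 with mouse as a block called 1. The block in edgeR took calls over all genes from 140 to 315 for IC in DMSO and from 40 to 85 for IC in iBET. It changed no other count over the 10 genes by more than 1.5 times. The calls it changed for single genes stand beside their results. Leaving out 1 library or 1 mouse gave 0 to 7 calls for IC in DMSO, 0 to 5 for IC in iBET, 1 to 6 for iBET in Ova, 3 to 7 for iBET in IC and 0 to 0 for the difference.

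The sign changed for the IC change of Tnfrsf1a in DMSO in limma (0.0042) and for the difference between arms of Cd40 with 1 surrogate variable (-0.0103). It also changed on leaving out a library or mouse in 9 results that were not called. These ranged from -0.0142 to 0.305 for the difference of Tnf, -0.26 to 0.11 for Tnfrsf1a with IC in DMSO, -0.24 to 0.10 for Tnfrsf1a with iBET in IC, -0.0066 to 0.43 for Tnfrsf1b with iBET in IC, -0.397 to 0.0282 for the difference of Tnfrsf1b, -0.274 to 0.0472 for Fas with IC in iBET, -0.15 to 0.41 for the difference of Cd40, -0.0306 to 0.18 for Traf2 with iBET in IC, and -0.339 to 0.0795 for the difference of Traf2. The cause was not tested. With the longest annotated transcript in place of all exons, 6 of the 10 genes kept their place in the order of levels per kb in DMSO Ova, Tnfrsf1a and Tnfrsf1b and Tnfaip2 and Cflar having changed places, and Traf1 moved from 2.68 to 6.89 CPM per kb.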
